A study of Mus musculus with 8 samples.

Results

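Chromosome 1 was examined gene by gene in the RNA of CJ9 cells, a line of mouse embryonic stem cells, to describe a small shift in expression between groups of libraries and to see whether it ran over the whole chromosome or over a segment. The genes were selected on their position, on chromosome 1 alone, and on a mean of 5 FPKM or more over the 8 libraries, and the chromosome itself was selected on the median shifts of the libraries given below. FPKM is the number of fragments scaled to transcript length and to library size. There were 468 such genes of 2290 symbols on the chromosome and of 8282 genes at that level in the whole table, and 11 of the 468 had no gene name. All 468 also passed the filter of the test described below. All cells were of the 129S4/SvJae strain and had been kept for 4 days without leukemia inhibitory factor (LIF), the cytokine that holds these cells undifferentiated. The groups were 2 wild-type (WT) libraries, 3 Evx1as knockout (KO) libraries and 3 libraries labelled EVX1 KO, and the series title names CRISPR as the way both knockouts were made. Evx1as is transcribed next to Evx1 without coding for protein, and the Evx1 protein is a homeobox factor active in the primitive streak. The labels do not say whether a knockout line was a single clone, or whether replicates came from separate cultures, so p-values measure only the spread between these libraries, which may be technical.

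The RNA level of most genes in a cell depends in part on how many copies of the gene the cell carries, so a gained or lost chromosome or segment tends to move many unrelated neighbouring genes the same way and by a similar ratio. Regulation by a transcription factor, by contrast, is known to act on selected genes that lie scattered over the genome. Cultured mouse embryonic stem cells are known to gain whole chromosomes or segments during passage. DNA copy number was not measured in these libraries, and its part in any difference below was not tested. In bulk RNA, fewer cells expressing a gene and less RNA per cell cannot be told apart.

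The promoters given here are those of Dars and Cxcr4, the genes on either side of the split described below, and of Mapkapk2. The difference along the chromosome was not shown to begin at these genes. Dars is the last gene in order before the step described below and encodes the cytoplasmic aspartyl-tRNA synthetase. Cxcr4 is the first gene after it and encodes a chemokine receptor of migrating mesendoderm cells. Mapkapk2, a little further on, encodes a stress-activated protein kinase and was chosen after its values were seen. The 250 bases upstream of each start are given 5′ to 3′ from RefSeq on GRCm38.p6, all on the minus strand, with GC boxes (GGGCGG or its reverse complement CCGCCC) in capitals. They lie at chr1:128417417-128417666, chr1:128592300-128592549 and chr1:131097844-131098093 in that order.
Dars: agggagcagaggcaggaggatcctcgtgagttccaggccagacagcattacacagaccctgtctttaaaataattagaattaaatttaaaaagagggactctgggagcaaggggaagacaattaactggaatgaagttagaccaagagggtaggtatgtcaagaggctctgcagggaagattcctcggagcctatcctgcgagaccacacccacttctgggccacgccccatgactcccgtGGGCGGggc
Cxcr4: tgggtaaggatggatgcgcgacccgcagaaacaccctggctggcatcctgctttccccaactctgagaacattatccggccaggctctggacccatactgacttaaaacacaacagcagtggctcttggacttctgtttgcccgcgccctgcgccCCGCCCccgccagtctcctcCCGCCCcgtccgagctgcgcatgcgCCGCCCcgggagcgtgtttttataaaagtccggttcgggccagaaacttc
Mapkapk2: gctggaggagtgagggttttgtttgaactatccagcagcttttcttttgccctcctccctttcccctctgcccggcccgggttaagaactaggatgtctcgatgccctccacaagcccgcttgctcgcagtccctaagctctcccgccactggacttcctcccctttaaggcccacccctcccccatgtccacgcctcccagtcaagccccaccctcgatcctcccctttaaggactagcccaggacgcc
The Dars promoter held 1 GC box, the Cxcr4 promoter held 3 and the Mapkapk2 promoter held 0. A GC box on either strand was present in 64.8% of the 193 promoters matched to genes before the step and in 67.1% of the 164 matched to genes after it, against 32.7% of all 32851 promoters of 250 bases in the table. The first listed start of each gene was used, and 357 of the 468 genes were matched. Both shares were above that of all listed promoters. The members were chosen on a mean of 5 FPKM or more and the listed promoters were not. The share among genes of that level elsewhere was not computed, so nothing about chromosome 1 is read from these shares.

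The Evx1as transcript (5730457N03Rik) was at 5.36 and 6.75 FPKM in the WT libraries, at 0.0549, 0.104 and 0.0485 FPKM in the Evx1as KO libraries and at 5.01, 8.81 and 7.39 FPKM in those labelled EVX1 KO. Evx1 was at 22.0 and 31.2 FPKM in WT, at 2.45, 3.84 and 0.541 FPKM in Evx1as KO and at 26.3, 20.8 and 31.7 FPKM in the EVX1-labelled libraries, so its RNA level did not check that label. All 8 markers of stem cells and epiblast (Pou5f1, Nanog, Sox2 and others) were at 1 FPKM or more in every library, with sums of 657 to 755 FPKM in WT, 1047 to 1186 FPKM in Evx1as KO and 891 to 936 FPKM in the EVX1-labelled libraries. Of 6 fibroblast markers 2 were at 1 FPKM or more in every library, their sums were 18.4 to 31.6, 11.7 to 20.9 and 18.4 to 24.0 FPKM in the same order of groups, and Postn was at 0 in 1 Evx1as KO library. Summed blood markers reached at most 0.892 FPKM, with Gata1, Hbb-bh1 and Ptprc at 0 in some libraries, and summed endothelial markers 1.32 FPKM. The part of other cell types in the results was not tested. The FPKM of a library summed to between 531523 and 587798, and absolute depth was unknown.

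Over all 468 genes, expression was higher in the EVX1-labelled libraries than in the Evx1as KO libraries by a small amount. Each gene's log2(FPKM + 1) was set relative to its own mean over the 8 libraries, and the median over genes was taken in each library. This median shift was 0.02 and -0.10 in WT replicates 1 and 2, -0.10, -0.09 and -0.09 in Evx1as KO replicates 1 to 3, and 0.14, 0.13 and 0.12 in EVX1-labelled replicates 1 to 3. The 3 EVX1-labelled libraries lay above the other 5, and WT replicate 2 lay within the range of the Evx1as KO libraries. The difference was 0.22 between the EVX1-labelled and Evx1as KO groups, 0.17 between the EVX1-labelled and WT groups, and -0.05 between the Evx1as KO and WT groups, beside 0.12 between the WT replicates. The chromosome was chosen for this shift, so these values are a description with no test.

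**Figure D1:**
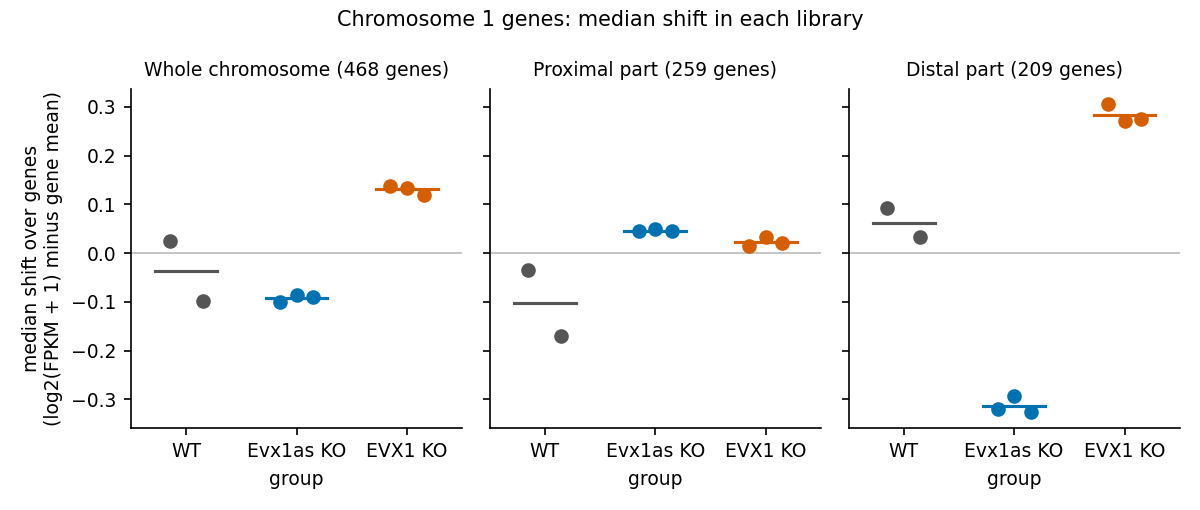
Median over chromosome 1 genes of log2(FPKM + 1) minus the gene's mean (vertical axis) for each library (points) by group, with the group mean as a bar, for the whole chromosome, the 259 genes before the step (proximal) and the 209 after it (distal). On the proximal part the 6 knockout libraries lie from 0.01 to 0.05, above WT replicates 1 and 2 at -0.04 and -0.17, and on the distal part the Evx1as KO libraries lie from -0.33 to -0.29 and the EVX1-labelled libraries from 0.27 to 0.31.

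The shift was not spread evenly, and the difference between the EVX1-labelled and Evx1as KO libraries lay in the distal part of the chromosome. Genes were put in order from the centromere end, where mouse coordinates start, and the order was split at the place that left the smallest summed absolute deviation from the medians of the 2 sides. That split fell after 259 genes, between Dars (130260283 to 130313993 on chromosome 1, positions as deposited) and Cxcr4 (130484775 to 130488876). The step across it was 0.61 on the log2 scale. The split with the largest difference of medians fell 20 genes further on, between Zc3h11a and Zbed6, which overlap and may share fragments, with a step of 0.62. The 20 genes between the splits had a median difference of 0.47, so the distal side was taken to start at Cxcr4, a choice made after seeing the data. For Evx1as KO minus WT the smallest deviation was again found between Dars and Cxcr4, with a step of -0.52. Its largest difference of medians fell after 281 genes, between Atp2b4 and Btg2, also with a step of -0.52. This comparison shares the Evx1as KO libraries with the first and is no separate evidence of the place. For EVX1 KO minus WT the step was 0.09, after Dyrk3, and between the WT replicates it was -0.06. By size, the EVX1 KO minus WT steps of the other chromosomes ran from -0.04 on chromosome 18 to -0.13 on chromosome 8. The 0.09 lay within these sizes, so no place is read from it.

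**Figure D2:**
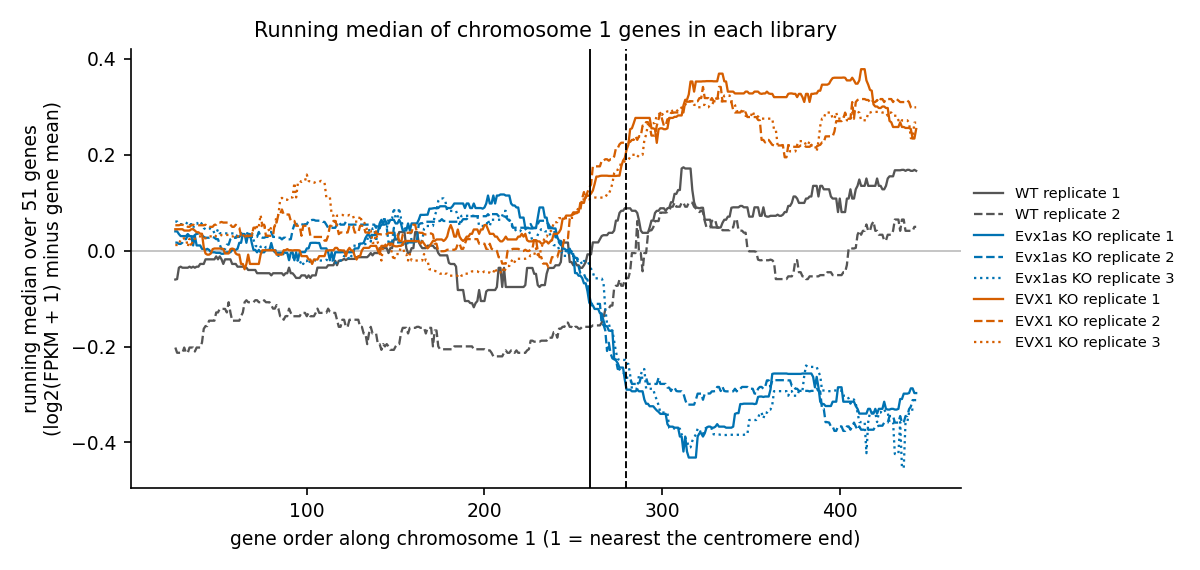
Running median over 51 neighbouring genes of log2(FPKM + 1) minus the gene's mean (vertical axis) along the gene order of chromosome 1 (horizontal axis), 1 line per library, coloured by group with solid, dashed and dotted lines for replicates 1, 2 and 3. The vertical lines mark the splits after 259 genes (solid) and 279 genes (dashed). At gene 259 WT replicate 2 is still lowest, at -0.16, beside -0.11, -0.09 and -0.03 in Evx1as KO replicates 1 to 3. From the dashed line on the 3 groups of lines are apart, with EVX1-labelled libraries above, WT between and Evx1as KO below.

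On the proximal side (259 genes, to 130 Mb) the median shift was -0.04 and -0.17 in the WT libraries, 0.05, 0.05 and 0.04 in the Evx1as KO libraries and 0.01, 0.03 and 0.02 in the EVX1-labelled libraries. The knockout groups were close there, with a difference of -0.02, and both lay above WT, by 0.15 for Evx1as KO and 0.13 for the EVX1-labelled group. The WT replicates differed from each other by 0.13, as much as the groups did: without WT replicate 2 the 2 differences were 0.10 and 0.07, and without WT replicate 1 they were 0.22 and 0.20. On the distal side (209 genes, to 197 Mb) the median shift was 0.09 and 0.03 in WT, -0.32, -0.29 and -0.33 in Evx1as KO and 0.31, 0.27 and 0.28 in the EVX1-labelled libraries. The 3 groups did not overlap there. The group means were 0.06 ± 0.04 (SD, n = 2), -0.31 ± 0.02 (SD, n = 3) and 0.28 ± 0.02 (SD, n = 3), which put the EVX1-labelled group 0.60 above Evx1as KO and 0.22 above WT, and Evx1as KO below WT by a difference of -0.38. For scale, 0.58 is the log2 of a ratio of 1.5.

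Taken within each library, which leaves out any scaling of the library as a whole, the distal minus the proximal median was 0.13 and 0.20 in WT, -0.36, -0.34 and -0.37 in Evx1as KO and 0.29, 0.24 and 0.25 in the EVX1-labelled libraries. The sign was negative in the 3 Evx1as KO libraries and positive in the other 5. The difference of this within-library contrast was 0.62 between the knockout groups, 0.10 between the EVX1-labelled and WT groups, and -0.52 between Evx1as KO and WT. By the medians of each side given above, the EVX1-labelled group lay above WT on both sides of the step. By the same medians the Evx1as KO group lay above WT before the step and below WT after it. The within-library contrast cannot show the place of a group on either side. The proximal differences from WT were about as large as the 0.13 between the WT replicates.

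In 10 blocks of 46 or 47 genes the difference of the EVX1-labelled from the Evx1as KO group was -0.01, 0.00, 0.03, -0.04 and -0.10 in blocks 1 to 5 and 0.17, 0.61, 0.62, 0.59 and 0.57 in blocks 6 to 10. Block 6 runs from 108 to 136 Mb and holds the step. All 3 EVX1-labelled libraries lay above all 3 Evx1as KO libraries in 5 of the 10 blocks, namely 6 to 10, and below them in block 5. On the other chromosomes 33 of 159 blocks of 46 genes (20.8%) had such a separation upward, and 33 had it downward. Evx1as KO lay wholly below WT in blocks 7 to 10, beside 21.4% of the blocks elsewhere, and wholly above it in blocks 1 to 5, beside 26.4%. The EVX1-labelled libraries lay wholly above WT in 9 blocks, all but block 4, beside 22.6% elsewhere. The differences of that group from WT were 0.10 to 0.28, against -0.33 to 0.22 in blocks elsewhere, and only blocks 8 and 9 lay beyond. For Evx1as KO minus WT the blocks elsewhere gave -0.31 to 0.20, and blocks 5, 7, 8 and 10 lay beyond. In blocks 1, 4, 5 and 6 the WT replicates differed by 0.155 to 0.173, above the highest value elsewhere, 0.151. From block 7 on the difference between the knockout groups stayed within 0.57 to 0.62. In bins of 20 Mb it was 0.37 from 120 to 139 Mb, 0.74 from 140 to 159 Mb, 0.55 from 162 to 180 Mb and 0.60 from 180 to 197 Mb.

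**Figure D3:**
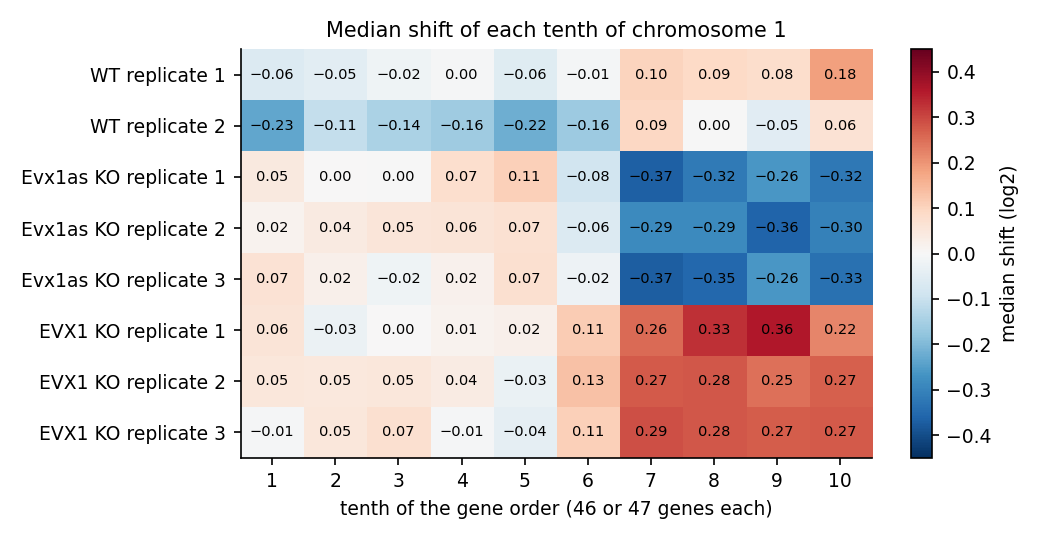
Heat map of the median shift (log2 scale, colour bar and printed numbers) of each block of 46 or 47 genes in order along chromosome 1 (columns) in each of the 8 libraries (rows). The Evx1as KO rows turn from near 0 to between -0.37 and -0.26 from block 7 on, and the EVX1-labelled rows reach 0.22 to 0.36 in the same blocks.

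The other chromosomes served as the background. The medians of 16 other autosomes lay between -0.04 and 0.04 in every library, and their differences between the knockout groups also lay between -0.04 and 0.04. The 2 further autosomes, 8 and 14, had shifts that went with single libraries and not with a group: chromosome 8 was at -0.38 and -0.30 in EVX1-labelled replicates 1 and 2 and at 0.09 in replicate 3, and chromosome 14 was at -0.36 and -0.34 in Evx1as KO replicates 2 and 3 and at 0.13 in replicate 1. Chromosome 1 differed from both in that the replicates of each knockout group were alike. Apart from chromosomes 8 and 14, the 142 blocks of 46 genes gave differences between the knockout groups from -0.14 to 0.12, and blocks 6 to 10 of chromosome 1 lay beyond that range. Over all 159 blocks, with chromosomes 8 and 14, the range was -0.46 to 0.47, and blocks 7 to 10 lay beyond it. The largest step on another chromosome was -0.41 on chromosome 14, followed by -0.18 on chromosome 8, and the rest lay between -0.15 on chromosome X and 0.15 on chromosome 5.

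**Figure D4:**
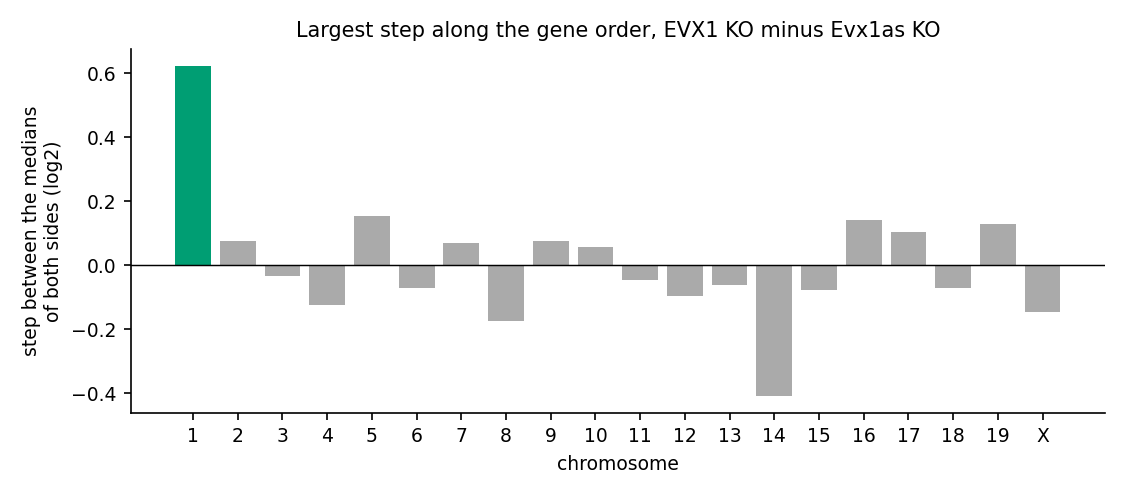
Largest step along the gene order of each chromosome (bars, log2 scale, from 0), as the difference of medians on both sides of the best split for EVX1 KO minus Evx1as KO, with at least 50 genes on each side. Chromosome 1 (green) stands at 0.62, chromosome 14 at -0.41, and all others lie within 0.18 of 0.

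Single genes were compared with limma over the 13188 genes that reached 1 FPKM in at least 2 of the libraries, and a Benjamini-Hochberg adjusted p below 0.05 was called a change. In EVX1 KO against Evx1as KO 157 of 209 distal genes (75.1%) were called higher and 2 (0.957%) lower, beside 10.7% higher and 11.3% lower among all genes tested. On the proximal side 25 of 259 genes (9.65%) were called higher and 29 (11.2%) lower, near those shares. The split was placed by this same contrast, so the counts describe it and nothing is read from them. All EVX1-labelled libraries lay above all Evx1as KO libraries for 179 distal genes (85.6%) and 50 proximal genes (19.3%), beside 20.1% of all genes tested. The log2 fold change was above 0 for 202 distal genes (96.7%), and its median was 0.59 with quartiles of 0.38 and 0.80, beside a median of -0.02 on the proximal side and -0.00 over all genes tested. As a ratio of mean FPKM the distal median was 1.54, with quartiles of 1.32 and 1.80. Of the 209 distal genes 136 lay between 0.3 and 0.9 on the log2 scale and 23 lay above 1, against 29 and 6 of 259 proximal genes.

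**Figure D5:**
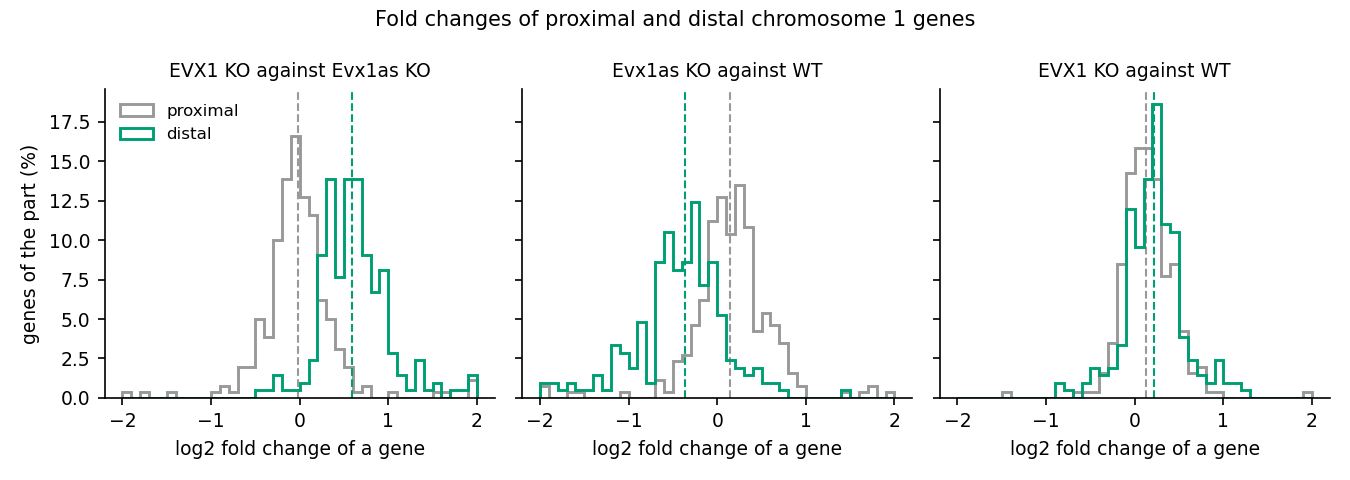
Share of the proximal (grey, 259) and distal (green, 209) chromosome 1 genes (vertical axis, %) by log2 fold change (horizontal axis, bins of 0.1, with values beyond 2 drawn in the outermost bin) in the 3 comparisons, with medians as dashed lines. The distal median is 0.59 for EVX1 KO against Evx1as KO, -0.37 for Evx1as KO against WT and 0.22 for EVX1 KO against WT, beside -0.02, 0.15 and 0.13 on the proximal side.

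The size of the distal difference varied little with expression level. Its median was 0.54 in the 70 distal genes of lowest mean (5.08 to 11.2 FPKM), 0.58 in the 69 of middle mean and 0.62 in the 70 of highest mean (30.3 to 603 FPKM). Genes of the chromosome below the level used to choose members also differed on the distal side. The 107 distal genes with a mean from 1 to 5 FPKM had a median shift of 0.09 and -0.00 in WT, -0.19, -0.24 and -0.22 in Evx1as KO and 0.27, 0.21 and 0.16 in the EVX1-labelled libraries. The difference between the knockout groups was 0.43 there and -0.05 in the 108 proximal genes of that level, on a log2(FPKM + 1) scale that understates the change of low genes. The members just inside the limit were Fbxo36 at 5.05, Vash2 at 5.08 and Tmem194b at 5.10 mean FPKM, and Pfkfb2 at 4.998, Mark1 at 4.89 and AA986860 at 4.79 lay just outside it.

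Around the step, neighbouring genes differed in size and direction. Mcm6, a subunit of the replicative helicase, was at 91.5 and 80.9 FPKM in WT, at 129, 111 and 130 FPKM in Evx1as KO and at 105, 98.9 and 108 FPKM in the EVX1-labelled libraries. Dars was at 50.9 and 44.8 FPKM in WT, at 48.0, 52.0 and 50.2 FPKM in Evx1as KO and at 53.5, 47 and 52.8 FPKM in the EVX1-labelled libraries. The groups of Dars overlapped, and its log2 fold change between the knockout groups was 0.03 ± 0.09 (SE, limma adjusted p = 0.846). Cxcr4 was at 20.3 and 7.61 FPKM in WT, at 0.644, 1.74 and 0.976 FPKM in Evx1as KO and at 23.3, 36.3 and 29.7 FPKM in the EVX1-labelled libraries. Its log2 fold change of 3.87 ± 0.32 (SE, limma adjusted p = 3.18e-04) was far larger than the distal median, and its WT replicates lay far apart, so Cxcr4 alone does not place the step. Gm17699, the next gene and a predicted one, was at 9.51 and 11.01 FPKM in WT, at 4.93, 6.08 and 3.43 FPKM in Evx1as KO and at 4.44, 5.14 and 6.57 FPKM in the EVX1-labelled libraries. Its knockout groups overlapped below WT, and its log2 fold change between them was 0.15 ± 0.19 (SE, limma adjusted p = 0.604). Mapkapk2, the third distal gene, was at 104 and 94.2 FPKM in WT, at 51.1, 54.3 and 54.1 FPKM in Evx1as KO and at 97.1, 103 and 111 FPKM in the EVX1-labelled libraries, a log2 fold change of 0.95 ± 0.08 (SE, limma adjusted p = 3.18e-04). Of the 6 genes that follow Mapkapk2, Srgap2 did not pass, with a log2 fold change of 0.36 ± 0.13 (SE, limma adjusted p = 0.0731), and the other 5 rose by 0.30 to 0.90. On the proximal side of Dars, R3hdm1 fell by 0.42 ± 0.08 (SE, limma adjusted p = 0.00834) in the same comparison.

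Of the 157 distal genes called higher in EVX1 KO against Evx1as KO, 41 were in the role lists used below and 116 were in none of them, so the lists describe only part of the called genes. Among all genes tested 10.7% were called higher and 11.3% lower. Among all 209 distal genes the shares were 75.1% and 0.957%, and among all 259 proximal genes 9.65% and 11.2%. List counts by side stand beside the shares of that side, and a count near them says nothing about the list. The median of each list is a log2 fold change of EVX1 KO against Evx1as KO, beside 0.59 for all distal and -0.02 for all proximal genes. The lists were drawn up with earlier results of these data known and their counts are a description.

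All 7 distal chromatin genes were called higher, with a median of 0.51 (5 to 7 without single libraries), and none of 4 proximal chromatin genes was called. Lbr, the lamin B receptor of the inner nuclear membrane that tethers heterochromatin, was at 63.1 and 64.9 FPKM in WT, at 46.3, 47.2 and 45.1 FPKM in Evx1as KO and at 85.6, 83.3 and 86.7 FPKM in the EVX1-labelled libraries. The 3 groups of Lbr did not overlap, and the log2 fold change between the knockouts was 0.87 ± 0.07 (SE, limma adjusted p = 2.39e-04). Kdm5b, a demethylase of histone H3 lysine 4, was at 34.5 and 35.7, at 33.0, 31.8 and 34.6, and at 51.6, 48.8 and 47.1 FPKM in the same order, and rose by 0.56 ± 0.08 (SE, limma adjusted p = 0.00182). The Evx1as KO libraries of Kdm5b overlapped those of WT, and the EVX1-labelled libraries lay above both. H3f3a, which encodes the replacement histone H3.3 and has near-identical pseudogene copies, was at 467 and 453, at 411, 364 and 386, and at 533, 476 and 475 FPKM. Its log2 fold change was 0.35 ± 0.08 (SE, limma adjusted p = 0.0139), with an adjusted p of 0.0528 without Evx1as KO replicate 3.

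Of 8 distal genes of mitochondria and metabolism 6 were called higher and none lower, with a median of 0.59, beside 1 higher and 1 lower of 7 on the proximal side. Without single libraries 5 to 6 distal and 0 to 1 proximal genes were called higher. Prdx6, a peroxiredoxin that removes peroxides, was at 142 and 124 FPKM in WT, at 98.2, 90.7 and 98.8 FPKM in Evx1as KO and at 162, 161 and 142 FPKM in the EVX1-labelled libraries. The Evx1as KO libraries of Prdx6 were the low ones, and it rose by 0.69 ± 0.09 between the knockouts (SE, limma adjusted p = 0.00134). Uck2, a uridine-cytidine kinase, was at 177 and 131, at 146, 138 and 139, and at 164, 169 and 155 FPKM, and its log2 fold change of 0.21 ± 0.11 did not pass (SE, limma adjusted p = 0.197). On the proximal side Atic, an enzyme of purine synthesis, was at 151 and 143, at 148, 145 and 140, and at 121, 139 and 165 FPKM, so its groups overlapped.

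Replication and mitosis genes differed by side, as the chromosome 1 genes did as a whole, with 75.1% of distal and 9.65% of proximal genes called higher. Of 11 distal members 8 were called higher and 1 lower, with a median of 0.56, whereas of 8 proximal members none was called higher and 3 lower, with a median of -0.19. Without single libraries 7 to 8 distal members were called higher, and on the proximal side 0 to 1 were called higher and 1 to 3 lower. Dtymk, thymidylate kinase, was a proximal member whose call failed without each of the 3 Evx1as KO and 3 EVX1-labelled libraries (limma adjusted p up to 0.111), and with the replicate number as a block (limma adjusted p = 0.0646). The call for Bard1, a partner of Brca1 on the proximal side, failed without Evx1as KO replicate 1 or 3 or EVX1-labelled replicate 1 or 2 (limma adjusted p up to 0.12). Parp1, a sensor of DNA breaks, was the distal member of highest mean, at 103 and 101 FPKM in WT, at 109, 107 and 112 FPKM in Evx1as KO and at 135, 121 and 123 FPKM in the EVX1-labelled libraries. All 3 EVX1-labelled values of Parp1 were the highest, but its log2 fold change of 0.21 ± 0.07 did not pass (SE, limma adjusted p = 0.0648). Nuf2, of the kinetochore complex that binds microtubules, was at 7.98 and 7.07, at 5.87, 5.74 and 6.09, and at 10.2, 11.5 and 11.4 FPKM, with a log2 fold change of 0.80 ± 0.09 (SE, limma adjusted p = 9.47e-04). Ube2t, a ubiquitin-conjugating enzyme of the Fanconi pathway, was the distal member called lower, at 12.9 and 12.5, at 21.6, 19.5 and 21.2, and at 16.8, 14.5 and 13.7 FPKM. Its call failed without Evx1as KO replicate 3 or EVX1-labelled replicate 2, with limma adjusted p up to 0.0566. Mcm3, another helicase subunit, lies on the proximal side and was at 152 and 134, at 223, 209 and 221, and at 149, 150 and 171 FPKM. It was highest in Evx1as KO and fell by 0.47 ± 0.08 between the knockouts (SE, limma adjusted p = 0.00577). Nuf2, Ube2t and Bard1 were picked with their values known.

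Of 12 members among Nodal and primitive streak genes 8 were called higher and 1 lower, and 3 were not called. On the distal side 5 of 6 were called higher and none lower, with a median of 1.19, and on the proximal side 3 of 6 were called higher and 1 lower, with a median of 0.15. Without single libraries the distal count stayed at 5, and on the proximal side 2 to 3 were called higher and 0 to 1 lower. Mixl1, a homeobox factor of mesendoderm on the distal side, was at 49.7 and 61.8 FPKM in WT, at 0.855, 10.3 and 1.95 FPKM in Evx1as KO and at 55.1, 55.3 and 71.8 FPKM in the EVX1-labelled libraries. The EVX1-labelled libraries of Mixl1 overlapped WT, and the log2 fold change between the knockouts was 3.95 ± 0.54 (SE, limma adjusted p = 0.00183). Wnt6, a Wnt ligand on the proximal side, was at 237 and 201, at 58.1, 75.4 and 43.6, and at 163, 183 and 213 FPKM, with a log2 fold change of 1.67 ± 0.18 (SE, limma adjusted p = 6.94e-04). Wnt10a, its neighbour, was at 35.1 and 33.2, at 8.27, 10.6 and 4.77, and at 29.8, 41.2 and 32.7 FPKM and rose by 2.05 ± 0.23 (SE, limma adjusted p = 7.66e-04). Lefty1, a secreted inhibitor of Nodal on the distal side, was at 13.5 and 20.7, at 32.7, 23.5 and 33.3, and at 57.0, 37.9 and 32.2 FPKM. Its knockout groups overlapped and its log2 fold change of 0.47 ± 0.23 did not pass (SE, limma adjusted p = 0.179).

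Matrix and contractile genes also held large changes on both sides. Of 4 distal members 3 were called higher, with a median of 0.94, and of 4 proximal members 1 was called higher and 2 lower. Both calls of lower level failed without Evx1as KO replicate 3, and 1 of them also without EVX1-labelled replicate 2 or 3. Tagln2, an actin-binding protein, was at 805 and 715 FPKM in WT, at 341, 430 and 348 FPKM in Evx1as KO and at 690, 726 and 769 FPKM in the EVX1-labelled libraries, a log2 fold change of 0.97 ± 0.10 between the knockouts (SE, limma adjusted p = 6.55e-04). Capn2, a calcium-dependent protease subunit, was at 119 and 126, at 51, 59.6 and 52.1, and at 93.3, 117 and 120 FPKM, and rose by 1.00 ± 0.11 (SE, limma adjusted p = 6.94e-04). For both genes the EVX1-labelled libraries overlapped WT and the Evx1as KO libraries were low. Fn1, fibronectin of the extracellular matrix, lies on the proximal side and was at 869 and 670, at 193, 373 and 231, and at 768, 770 and 707 FPKM, a log2 fold change of 1.55 ± 0.21 (SE, limma adjusted p = 0.00189). Of 4 distal p53 and stress genes all were called higher, with a median of 0.56, and 1 to 4 were without single libraries. Among them Phlda3, a p53-induced inhibitor of Akt signalling, was at 192 and 185, at 73.1, 96.6 and 90.2, and at 142, 131 and 139 FPKM, so its 3 groups did not overlap and WT was highest. The call for Mdm4, an inhibitor of p53, failed without any of 5 libraries, the 3 of Evx1as KO and EVX1-labelled replicates 1 and 2, with adjusted p up to 0.0978. The calls for Btg2 and Atf3 in this list each failed without any of 4 libraries, with adjusted p up to 0.0838 and 0.0764: Evx1as KO replicates 1 and 3 and EVX1-labelled replicate 2 for both, EVX1-labelled replicate 1 for Btg2 and EVX1-labelled replicate 3 for Atf3.

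The remaining lists were mostly uncalled on the proximal side. Of 9 proximal ribosome and nucleolus genes none was called higher and 1 lower (Rpl37a, a call that failed without each of the 3 Evx1as KO and 3 EVX1-labelled libraries, with adjusted p up to 0.146), with a median of -0.08, whereas 3 of 4 distal ones were called higher, with a median of 0.34. The distal calls for Nvl and Rrp15 failed without any of 5 libraries, namely the 3 of Evx1as KO and EVX1-labelled replicates 2 and 3 (limma adjusted p up to 0.0906 and 0.076), which left 1 to 3. Ncl, the nucleolar protein nucleolin, was at 317 and 291 FPKM in WT, at 330, 346 and 303 FPKM in Evx1as KO and at 261, 336 and 332 FPKM in the EVX1-labelled libraries, and its groups overlapped. Gas5, a distal host transcript of small nucleolar RNAs, was at 4.80 and 4.85, at 4.91, 5.26 and 5.79, and at 9.999, 14.1 and 9.73 FPKM, a log2 fold change of 0.94 ± 0.14 between the knockouts (SE, limma adjusted p = 0.00297). Of 8 proximal genes of chaperones, the proteasome and the signalosome 1 was called lower (Hspe1, a call that failed without Evx1as KO replicate 1 or 3, with adjusted p up to 0.0724) and none higher, and of 2 distal ones 1 was called higher. Among aminoacyl-tRNA synthetases 1 of 3 distal and 0 of 2 proximal genes were called higher, and Eprs, the distal glutamyl-prolyl-tRNA synthetase, was at 71.0 and 66.1, at 69.0, 66.9 and 63.4, and at 83.8, 97.1 and 99.9 FPKM. Of RNA-binding and splicing genes 2 of 4 distal and 1 of 4 proximal were called higher, against 1 to 3 and 0 to 1 without single libraries. The proximal call, for Hdlbp, failed without Evx1as KO replicate 1 or 3 or EVX1-labelled replicate 2 or 3 (limma adjusted p up to 0.111) and with the replicate number as a block (limma adjusted p = 0.0576). The distal call for Snrpe failed without Evx1as KO replicate 3 or EVX1-labelled replicate 2 (limma adjusted p up to 0.0803). Hnrnpu, a nuclear matrix RNA-binding protein and the distal member of highest mean, was at 189 and 203, at 196, 210 and 178, and at 196, 254 and 275 FPKM, and its log2 fold change of 0.30 ± 0.12 did not pass (SE, limma adjusted p = 0.116). Zfp281, a zinc finger factor of pluripotent cells, was the only member of the pluripotency list, at 9.68 and 12.8, at 8.37, 7.97 and 8, and at 13.3, 13.8 and 13.1 FPKM, and rose by 0.66 ± 0.11 between the knockouts (SE, limma adjusted p = 0.00394).

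The EVX1-labelled group was not higher for 7 of the 209 distal genes, and 2 of these were called lower. These were Ube2t, given above, and Sox13, a SOX family transcription factor, at 4.88 and 4.24 FPKM in WT, at 6.77, 6.09 and 6.46 FPKM in Evx1as KO and at 4.62, 4.93 and 4.85 FPKM in the EVX1-labelled libraries (log2 fold change -0.36 ± 0.10 SE, limma adjusted p = 0.0321). The call for Sox13 failed without any of 5 libraries, namely Evx1as KO replicates 1 and 3 and the 3 EVX1-labelled ones, with limma adjusted p up to 0.0989. Both were highest in Evx1as KO, against the direction of their neighbours. The other 5 were Nfasc, Gm16880, Atp1b1, Aldh9a1 and Nenf, with log2 fold changes from -0.29 to -0.00 that did not pass. Atp1b1, the beta subunit of the sodium pump, was at 48.4 and 44.1, at 38.9, 33.7 and 41.0, and at 27.1, 31.1 and 35.0 FPKM, so WT was highest. These 7 were named for their direction once their values were known.

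Against WT, the Evx1as KO libraries were lower on the distal side and higher on the proximal side. Of 209 distal genes 102 (48.8%) were called lower and 7 (3.35%) higher, and of 259 proximal genes 11 (4.25%) were called lower and 62 (23.9%) higher, beside 11.4% lower and 13% higher among all genes tested. Without WT replicate 1 the number of distal genes called lower was 67, and of proximal ones 5. The number of all members called, 182, was 111 without WT replicate 2. All Evx1as KO libraries lay below both WT libraries for 144 distal genes (68.9%), beside 26.2% of all genes tested, and above them for 118 proximal genes (45.6%), beside 29.5%. The log2 fold change was above 0 for 213 of the 468 genes (45.5%), beside 51.8% of all genes tested. The median ratio of mean FPKM was 0.762 on the distal side and 1.11 on the proximal side. Steap3, a metalloreductase of iron uptake on the proximal side, had a large rise, from 6.60 and 7.43 FPKM in WT to 34.0, 22.1 and 34.0 FPKM in Evx1as KO, and stood at 9.94, 10.3 and 10.2 FPKM in the EVX1-labelled libraries. The log2 fold change of Evx1as KO against WT was 1.93 ± 0.17 (SE, limma adjusted p = 6.41e-04). Adam23, a membrane protein of the disintegrin family, rose from 2.16 and 3.44 FPKM to 11, 10.4 and 12.6 FPKM, and stood at 2.35, 2.92 and 2.52 FPKM in the EVX1-labelled libraries. Among the largest falls was Tgfb2, a ligand of the TGF-beta family on the distal side, at 19.2 and 18.6 FPKM in WT, at 3.57, 6.02 and 3.94 FPKM in Evx1as KO and at 9.06, 10.6 and 11.3 FPKM in the EVX1-labelled libraries, with a log2 fold change of -1.88 ± 0.18 for Evx1as KO against WT (SE, limma adjusted p = 7.78e-04). The 3 groups of Tgfb2 did not overlap.

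Against the same WT libraries, which both comparisons share, the EVX1-labelled libraries differed little in single genes. Of the 468 genes 18 (3.85%) were called higher and 1 lower (0.214%), beside 0.69% and 0.554% of all genes tested and 1.24% called in either direction. The log2 fold change was above 0 for 344 genes (73.5%), beside 52.9%. The calls lay on both sides, with 11 distal and 7 proximal genes higher and 1 proximal gene lower. All EVX1-labelled libraries lay above both WT libraries for 115 distal genes (55%) and 100 proximal genes (38.6%), beside 21.2% of all genes tested, and the median ratio of mean FPKM was 1.17 on the distal and 1.1 on the proximal side. The 19 calls were 0 without WT replicate 1 or EVX1-labelled replicate 2, 2 without WT replicate 2, 5 without Evx1as KO replicate 3, 7 without EVX1-labelled replicate 1, 10 without Evx1as KO replicate 1 and 51 without EVX1-labelled replicate 3, and 2 with the replicate number as a block. Terf1, a telomere-binding protein on the proximal side, was at 23.2 and 29.9 FPKM in WT, at 50.3, 47.4 and 45.6 FPKM in Evx1as KO and at 57.8, 48.1 and 53.2 FPKM in the EVX1-labelled libraries. It was higher in both knockout groups, with a log2 fold change of 0.98 ± 0.12 for EVX1 KO against WT (SE, limma adjusted p = 0.0200, up to 0.15 without WT replicate 1 or EVX1-labelled replicate 2). Serpine2, an inhibitor of serine proteases, was the gene called lower, at 33.9 and 30.7, at 18.2, 23.4 and 23.6, and at 8.53, 11.4 and 15.5 FPKM. Its log2 fold change against WT was -1.41 ± 0.21 (SE, limma adjusted p = 0.0266), with an adjusted p of up to 0.179 without WT replicate 1, WT replicate 2, Evx1as KO replicate 3 or EVX1-labelled replicate 2.

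The order of the 3 group means differed between the sides. The order EVX1-labelled over WT over Evx1as KO was found for 128 of 209 distal genes and 40 of 259 proximal genes. WT was lowest for 142 proximal and 33 distal genes. The shares of these orders over all genes tested were not computed, so the counts are only a description. The proximal median shift was -0.04 in WT replicate 1 and -0.17 in WT replicate 2, and the orders without either replicate were not computed. Lbr, Vangl2 and Glul followed the distal order. Vangl2, a planar cell polarity protein, was at 20.9 and 21.4 FPKM in WT, at 17.5, 17.0 and 14.8 FPKM in Evx1as KO and at 32.8, 28.9 and 30.2 FPKM in the EVX1-labelled libraries. Glul, glutamine synthetase, was at 93.5 and 85.5, at 53.2, 56.5 and 57.2, and at 101, 112 and 110 FPKM. Neither group of knockout libraries overlapped WT for these 3 genes, picked for this order with their values known. Rpl7, a proximal ribosomal protein gene with many pseudogene copies, had WT lowest, at 1105 and 1093 FPKM, beside 1867, 1742 and 1843 FPKM in Evx1as KO and 1585 to 1750 FPKM in the EVX1-labelled libraries.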

How the data were processed

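RNA-seq of 8 libraries (2 WT, 3 Evx1as KO and 3 labelled EVX1 KO, grouped and numbered by their labels) was deposited as 1 table of FPKM computed by the authors. Per the labels' protocols the kit was TruSeq Stranded mRNA. Per the submitters' processing notes the tools were CASAVA and TopHat2 2.0.11, with mm9 and mm10 both listed as builds and neither tied to a step. The program behind the FPKM, its annotation and its strand setting were not given in the sources used here. Genes that overlap, have antisense partners or have near-identical copies are therefore uncertain. The table had 45772 lines, of which 42245 held values for 38610 symbols. Symbols on several lines had the same values on each and were used once (66 members). Symbols on more than 1 chromosome (52) were left out.

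Of 430 members found in RefSeq for GRCm38, 84 (19.5%) overlapped their position there, and chromosome 1 of the table runs to 197002909, beyond the last RefSeq gene end at 195291439, so positions are as in the table and are not those of GRCm38. Promoter positions are GRCm38.p6.

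Values were log2(FPKM + 1) minus the gene mean, without rescaling. Depth is unknown because FPKM are not counts. Steps between low values put the depth at 0.859 to 1.19 times that of WT replicate 1, with 31.5% to 34.3% of the low genes used lying at the step. Splits left at least 50 genes on each side. The 8 libraries shared 1 model holding a mean for each group, fitted with limma 3.58.1 (R 4.3.3, moderated variances with a trend on mean level, two-sided) for genes that reached 1 FPKM in 2 or more libraries. P-values were Benjamini-Hochberg adjusted over 13188 genes. A fold change on this scale understates that of low genes. Other steps used Python 3.11.15, pandas 2.3.3, numpy 2.4.6 and matplotlib 3.10.9, and were tested on simulated data.

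The members and lists were chosen with earlier results of these data known. The lists were Nodal and streak, pluripotency, ribosome and nucleolus, replication and mitosis, chaperone, proteasome and signalosome, mitochondrial and metabolic, aminoacyl-tRNA synthetase, RNA-binding and splicing, chromatin, matrix and contractile, and p53 and stress genes. Named genes were the 5 largest rises and falls per comparison among called members whose groups did not overlap, the 2 members of highest mean FPKM in each of 10 blocks, up to 4 of highest mean per list, and 3 on either side of the level limit. The text gives a selection of these. Predicted and unnamed genes and ribosomal pseudogenes were passed over. Other genes named in the text were chosen after their values were seen. Alternatives were the pseudocount, level limit, scaling, mean in place of median, uncalled members only, block size, filter, replicate block, array weights, a fit of only 2 groups and leaving out each library.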

Additional observations from a re-analysis of the deposited data

How the results depend on the processing

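The distal difference between the knockout groups kept its sign in every alternative tried. It was 0.63 with a pseudocount of 0.1, 0.62 at a mean of at least 10 FPKM, 0.54 at a mean of at least 1 FPKM, 0.64 as a mean over genes, 0.27 over members called in no comparison, which leaves out by construction the genes that differed most, and 0.58 to 0.60 without single libraries. In the same order the whole-chromosome difference (0.22) was 0.24, 0.21, 0.21, 0.28, 0.048 and 0.21 to 0.23. The proximal difference between the knockouts (-0.02) stayed near 0: -0.035 at a mean of at least 1 FPKM, -0.016 after subtracting the median of the other chromosomes, -0.012 as a mean, 0.019 over uncalled members, -0.0007 with the split after 279 genes and -0.036 to -0.016 without single libraries.

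For EVX1 KO minus WT the whole-chromosome value (0.17) was 0.11 over uncalled members and 0.12 to 0.24 without single libraries, the proximal value (0.13) 0.069 to 0.20 without single libraries, and the distal value (0.22) 0.18 at a mean of at least 10 FPKM, 0.28 over uncalled members and 0.17 to 0.24 without single libraries. For Evx1as KO minus WT the whole-chromosome value (-0.05) was 0.063 over uncalled members and -0.11 to 0.0087 without single libraries, turning positive without WT replicate 1. The proximal value (0.15) was 0.068 over uncalled members and 0.10 to 0.22 without single libraries. The distal value (-0.38) was -0.41 with a pseudocount of 0.1, -0.44 and -0.34 at means of at least 10 and 1 FPKM, -0.43 as a mean, 0.011 over uncalled members and -0.42 to -0.34 without single libraries. The WT replicates differed on the distal side by 0.17 over uncalled members, against 0.06.

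With 20 blocks the EVX1-labelled libraries lay wholly above Evx1as KO in 9 and with uncalled members in 2 of 10, against 5, and in 5 to 7 without single libraries. Members called in EVX1 KO against WT numbered 2 with no filter, 29 with a filter of 5 FPKM, 88 with array weights, 1 in a fit of only the 2 groups and 0 to 51 without single libraries, against 19. Members called in Evx1as KO against WT ranged from 111 to 191 without single libraries, and distal ones called lower from 67 to 106. Proximal genes called higher between the knockouts numbered 49 with array weights and 11 to 25 without single libraries, against 25, with 13, 12 and 11 without Evx1as KO replicates 1 and 3 and EVX1-labelled replicate 2. Proximal genes called lower in Evx1as KO against WT numbered 6 with no filter and 5 to 14 without single libraries, against 11. Distal genes called higher between the knockouts ranged from 131 to 154 without single libraries, against 157.

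Replicate numbers did not pair the libraries: deviations of same-numbered libraries correlated from -0.10 to 0.08. With the replicate number as a block 149 members (182 without it) were called in Evx1as KO and 2 (19) in EVX1 KO against WT, and 201 (213) between the knockouts, and 6 proximal genes were lower in Evx1as KO against WT. The causes of these changes were not tested. Without read counts no counting error can be given, and the WT group of 2 libraries limits both comparisons with it.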
